A study of Mus musculus with 2 samples.

Results

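T cells carrying NK receptor transcripts were 158 of the 20951 cells that passed the cell filter in 2 droplet libraries of sorted mouse spleen NK cells, which hold 22400 barcodes in all. A barcode was taken as one of these cells where it showed 500 genes or more and no more than 10% mitochondrial UMIs (unique molecular identifiers, the counted mRNA tags), at least 1 UMI of Cd3e and at least 2 UMIs over Cd3d, Cd3e, Cd3g and Trac. It also needed at least 1 UMI over the NK receptor genes Ncr1, Klrb1c and Klrk1, and 0 UMIs over C1qa, C1qb, C1qc, H2-Aa and Cd79a, which mark macrophages, antigen-presenting cells and B cells. The cells were thus chosen by the measured UMIs of these 12 genes, whose levels are given below as a description alone. The cells were split by UMIs of the gamma receptor constant genes Tcrg-C1, Tcrg-C2 and Tcrg-C4, and were set beside NK cells of the same library, which had at least 3 UMIs over the NK receptor genes and 0 of Cd3e.

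The study compared C57BL/6 mice with EP3F/F alleles (control) and mice with the same alleles plus NKp46Cre (knockout). The alleles concern EP3, the prostaglandin E2 receptor encoded by Ptger3, and Cre follows NKp46, the NK receptor encoded by Ncr1, so the controls carry the same alleles without Cre. Spleen cells sorted as CD27+CD11b+ NK cells were pooled from 2 mice of each genotype and made into 1 library of 3' tags per genotype, and neither age nor treatment is given in the labels. With 1 library per genotype no test was possible: intervals below are 95% intervals for counting error alone and say nothing of the spread between mice or library preparations.

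T cells recognise antigen through a receptor of paired chains, alpha with beta or gamma with delta, that signals through the CD3 proteins. NK cells lack such a receptor and read the state of other cells through germline-encoded receptors such as NK1.1 (Klrb1c), NKG2D (Klrk1), NKp46 (Ncr1) and the Ly49 family (Klra genes). Some T cells, among them natural killer T cells with an invariant alpha chain and subsets of gamma delta T cells, display NK receptors as well, and a sort gated on an NK receptor can take them in unless CD3+ cells are removed. How the sort treated CD3 is not given in the sources used here.

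Of the gamma constant genes used for the split, Tcrg-C1 and Tcrg-C2 are near-copies, while Tcrg-C4 differs more. The start of each is shown because their likeness limits what the counts can tell apart. The lines give the first 90 coding bases, 5' to 3' on the gene's own strand, from the GENCODE M21 annotation of the GRCm38 build, at chr13:19214103-19214192 (plus strand) for Tcrg-C1, chr13:19307462-19307551 (minus strand) for Tcrg-C2 and chr13:19344558-19344647 (plus strand) for Tcrg-C4. Capitals mark bases that differ from Tcrg-C1.
Tcrg-C1: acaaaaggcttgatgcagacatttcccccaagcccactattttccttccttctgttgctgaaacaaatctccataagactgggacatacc
Tcrg-C2: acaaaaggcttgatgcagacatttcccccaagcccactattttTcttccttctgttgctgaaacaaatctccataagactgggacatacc
Tcrg-C4: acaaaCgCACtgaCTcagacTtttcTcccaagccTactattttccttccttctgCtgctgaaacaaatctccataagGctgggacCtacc
Over these bases Tcrg-C2 differed from Tcrg-C1 at 1 position and Tcrg-C4 at 12. Across the 330 bases of the first exon, identity with Tcrg-C1 was 97.3% for Tcrg-C2 and 82.1% for Tcrg-C4. Of the 357 windows of 50 bases that follow the Tcrg-C1 stop codon, where 3' tags fall, 88 were found unchanged in Tcrg-C2 and 0 in Tcrg-C4. The division of UMIs between Tcrg-C1 and Tcrg-C2 is therefore uncertain, and the sum over the 3 genes was used.

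The control library held 69853026 UMIs over 11785 barcodes and the knockout library 42795121 over 10615. In the control the T cells were 44 of the 10928 filtered cells (0.403%, 95% exact binomial interval 0.293 to 0.540%). In the knockout they were 114 of 10023 (1.14%, 0.939 to 1.36%), a share 2.82-fold higher. The difference is larger than the counting error of the shares, but with 1 pool of 2 mice per genotype, genotype cannot be told apart from pool and library. Barcodes that met the CD3 rule at any NK receptor level were also more numerous in the knockout, 155 against 59. Of those with 0 UMIs over C1qa, C1qb, C1qc, H2-Aa and Cd79a, the T cells were 44 of 58 (75.9%) in the control and 114 of 146 (78.1%) in the knockout. The higher share was thus not particular to T cells with NK receptor UMIs. The 2 libraries had 33 barcodes in common, and none of the 158 cells was among them. The median control T cell held 6891 UMIs and 2160 genes and the median knockout T cell 5055.5 UMIs and 1727 genes. The 10679 control NK cells had medians of 5850 UMIs and 2120 genes, and the 9502 knockout NK cells 3863.5 UMIs and 1531 genes. Median mitochondrial shares were 4.28% and 4.92% in the T cells and 3.47% and 3.90% in NK cells.

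The cells stood well above the minimum that chose them on the T cell side and spread widely on the NK side. UMIs over Cd3d, Cd3e, Cd3g and Trac ran from 2 to 36 per control cell with a median of 14.5, and from 2 to 48 per knockout cell with a median of 14. Only 1 control cell and 1 knockout cell had exactly 2 such UMIs. Filtered cells with a single Cd3e UMI and no further UMI of these genes numbered 5 in the knockout and 0 in the control. These were counted without regard to their NK receptor, macrophage or B cell UMIs. UMIs over Ncr1, Klrb1c and Klrk1 ran from 1 to 48 in the control with a median of 7.5, and from 1 to 36 in the knockout with a median of 5, where NK cells had medians of 20 and 13. The minimum of 1 such UMI was met by exactly 1 UMI in 5 control and 14 knockout cells, while 34 of 44 and 85 of 114 had at least 3. Barcodes that met the CD3 rule with 0 NK receptor UMIs were fewer, 15 in the control and 34 in the knockout.

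**Figure D1:**
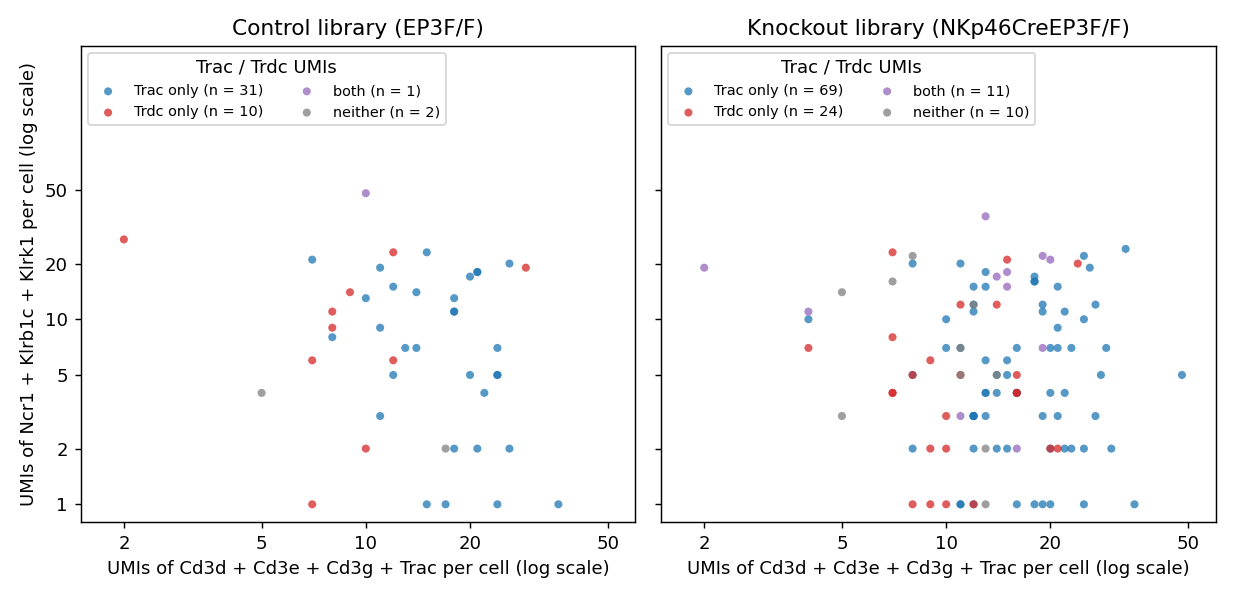
UMIs per cell over the 4 CD3 and Trac genes (x, log scale) and over the 3 NK receptor genes (y, log scale) for the 44 control and 114 knockout T cells, coloured by whether the cell held UMIs of Trac, Trdc, both or neither. Most cells lie between 5 and 50 CD3 and Trac UMIs, while their NK receptor UMIs spread from 1 upward.

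NK transcripts were also read in barcodes of another cell type, and their source there was not tested. Among macrophage barcodes (at least 10 UMIs over C1qa, C1qb and C1qc and 0 of Cd3e) 54.5% of 44 in the control and 43.4% of 159 in the knockout held an NK receptor UMI, at median depths of 2899 and 2261 UMIs. Over 30 NK genes, macrophage barcodes held 57.3 to 143% of the NK cell level in the control and 31.3 to 133% in the knockout. Among the 30 are Ncr1, Klrb1c and Klrk1, by which the T cells and NK cells were chosen. The T cells held 7.26 to 119% in the control and 9.42 to 139% in the knockout, so their NK genes stood in very unequal proportions. In the control, Klra3 was at the low end and Xcl1, a chemokine, at the high end, and in the knockout Klri2 and Xcl1 were. In barcodes that met the CD3 rule with 0 NK receptor UMIs, the 30 genes, of which the rule fixes Ncr1, Klrb1c and Klrk1 at 0, ran from 0 to 67.1% of the NK level in the control with a median of 2.32%, and from 0 to 190.02% in the knockout with a median of 5.13%.

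The label was checked against markers of T cells that the rule did not use. Trbc2, a beta chain constant gene, had UMIs in 43 of 44 control and 113 of 114 knockout cells, and in 34.4% and 31.0% of NK cells. By share of cells Trbc1, another beta chain constant gene, went the other way. It was seen in 21 of 44 and 64 of 114 cells, against 78.3% and 71.7% of NK cells. Bcl11b, a transcription factor of T cell commitment, was seen in 27 of 44 and 60 of 114 cells, against 3.83% and 3.16% of NK cells. Cd5 and Cd6, scavenger-type receptors of T cells, were seen in 11 and 5 control cells and in 25 and 40 knockout cells, and in 0.0281 to 0.0737% of NK cells. Cd28, the costimulatory receptor, was seen in 29 and 73 cells, but also in 29.1% and 21.4% of NK cells. The name T cells is used on these values.

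The receptor transcripts divided the cells mainly by Trac and Trdc, the constant genes of the alpha and delta chains, a division chosen after the values were seen. In the control 31 of 44 cells held Trac without Trdc, 10 held Trdc without Trac, 1 held both and 2 held neither. In the knockout the same counts were 69, 24, 11 and 10 of 114. The Trac share was thus 70.5% (54.8 to 83.2%) and 60.5% (50.9 to 69.6%), and the Trdc share 22.7% (11.5 to 37.8%) and 21.1% (13.98 to 29.7%), with intervals that overlap between libraries. Trdc UMIs ran from 1 to 22 per cell in the control Trdc cells and from 2 to 18 in the knockout ones, with medians of 5 and 5.5. Trdc alone does not mark a T cell here, since 40.8% of control and 45.5% of knockout NK cells also held Trdc UMIs, up to 7 and 10 per cell.

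UMIs of the gamma constant genes were found in 23 of 44 control T cells, or 52.3% (36.7 to 67.5%), and in 63 of 114 knockout T cells, or 55.3% (45.7 to 64.6%). They were nearly general in the Trdc cells, 9 of 10 and 22 of 24. Yet 13 of 31 control and 34 of 69 knockout Trac cells held them too, so that 13 of the 23 and 34 of the 63 cells with gamma constant UMIs had Trac and no Trdc. The split by gamma constant genes is thus not a split into gamma delta and alpha beta T cells. The counts behind it were low: Tcrg-C1, Tcrg-C2 and Tcrg-C4 together gave 63 UMIs in the control and 192 in the knockout, a median of 2 in the cells that held any, and 7 and 22 of these cells held a single one. In cells thinned to 2000 UMIs, the depth used to compare libraries, gamma constant UMIs were left in 29.5% of control and 37.5% of knockout cells.

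**Figure D2:**
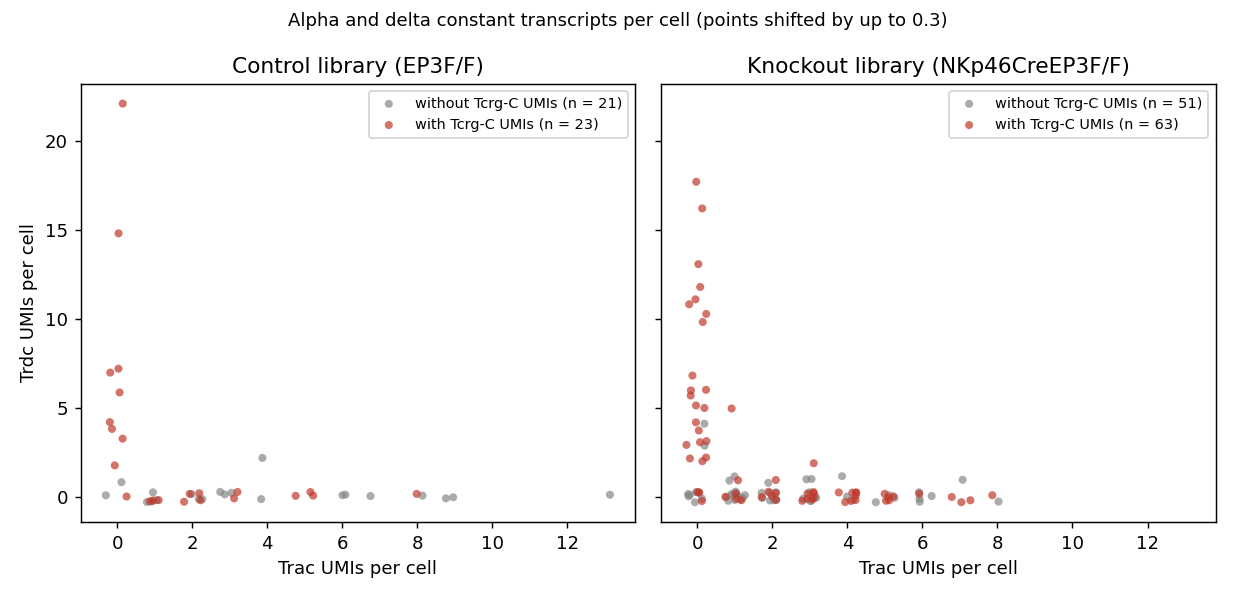
UMIs of Trac (x) and Trdc (y) in each T cell, with the control library at left and the knockout library at right and red for cells with UMIs of Tcrg-C1, Tcrg-C2 or Tcrg-C4. Red points fill the Trdc arm (9 of 10 and 22 of 24 cells) and also lie along the Trac arm (13 of 31 and 34 of 69).

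The cells holding both Trac and Trdc differed from the others in depth. The single control cell had 14721 UMIs, and the 11 knockout cells had a median of 7659 UMIs, with 6 of them above the 95th percentile of knockout NK cells (7653 UMIs). In 9 of the 11 the Trdc signal was 1 UMI. In these 11 cells Klra4 stood at 83.6% of the NK level, Gzma at 48.6% and Gzmb at 122%, where the knockout Trac cells had 0.3%, 4.1% and 0.9%. Whether droplets with a T cell and an NK cell account for them was not tested.

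Co-receptors were sparse. Cd4 was seen in 8 of 44 control and 24 of 114 knockout cells and Cd8a or Cd8b1 in 5 and 4, so that 31 and 86 cells held neither. None held both. Of the Trdc cells 1 of 10 and 0 of 24 held a Cd4 or Cd8 UMI. Among CD3 barcodes with 0 NK receptor UMIs, by comparison, Cd8a or Cd8b1 was seen in 6 of 15 and 9 of 34.

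Variable segments, named after their values were seen, gave further detail. Trav11, the alpha segment of the invariant receptor of natural killer T cells, was seen in 1 control and 9 knockout cells and in 0 of 15 and 0 of 34 CD3 barcodes with 0 NK receptor UMIs. All 9 knockout cells held Klrb1c, but this gene is part of the rule and was seen in 93.9% of all knockout T cells. Its presence therefore does not set the 9 cells apart. Cxcr6, which the rule did not use, was seen in 8 of the 9, against 53.5% of all knockout T cells. Zbtb16, the transcription factor of innate-like T cells, was seen in 0 of 9. Its counts were low throughout (3 control and 12 knockout cells). Trgv2, a gamma segment, was seen in 14 control and 28 knockout cells, of which 14 and 26 held gamma constant UMIs. With 3' tags most cells give no variable segment, so these are lower counts and not the share of cells that use a segment.

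The T cells were next set beside NK cells over all genes. A gene was counted as higher or lower where its UMIs per 1000000 of its cell group (CPM) differed at least 2-fold, a log2 ratio of 1, in the same direction in both libraries. Of 5431 genes with a mean of at least 20 CPM and outside the rule, 99 were higher (1.82%) and 137 lower (2.52%), and the median log2 ratio over all of them was -0.14 in the control and -0.07 in the knockout.

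T cell genes were among the higher genes. Of 12 measured genes of T cell surface proteins 6 were higher and 0 lower, with a median log2 ratio of 1.21. Cd40lg, the ligand that helps B cells, was at 33.2 CPM in control and 55.6 CPM in knockout T cells, and at 0 and 0.099 CPM in NK cells. Cd5, an inhibitory partner of the receptor, was at 60.4 and 62.0 CPM, against 0.073 and 0.172 CPM in NK cells. Among genes of signalling below the receptor, higher levels were found for Lat, the adaptor that links the receptor to downstream enzymes, and Trat1, a receptor-associated adaptor. Lat was at 184 and 208 CPM against 39.6 and 45.6 CPM in NK cells. Lck, the kinase that starts receptor signalling, was at 299 and 394 CPM against 331 and 283 CPM, levels within 2-fold of each other. Of 10 T cell transcription factors 2 were higher and 0 lower. Bcl11b was at 154 and 157 CPM against 6.88 and 8.30 CPM, and Ikzf2 (Helios) at 233 and 165 CPM against 19.9 and 26.5 CPM.

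A second set of higher genes belongs to tissue-resident and innate-like lymphocytes. Cxcr6, a chemokine receptor that was also among the markers proposed for these cells, was at 166 CPM in control and 382 CPM in knockout T cells, and at 0.909 and 5.05 CPM in NK cells. Its UMIs ran from 0 to 8 per control cell and from 0 to 20 per knockout cell, with 15 of 44 and 61 of 114 cells holding any, against 0.375% and 1.33% of NK cells. Il7r, the receptor for the survival cytokine interleukin 7, was at 1106 and 976 CPM against 30.2 and 64.8 CPM, a log2 ratio of 5.19 (5.03 to 5.35) and 3.91 (3.78 to 4.04). It was seen in 37 of 44 and 97 of 114 cells. The CD3 barcodes with 0 NK receptor UMIs, 15 and 34 in number, also stood above NK cells for both genes. They held Il7r at 504 and 424 CPM, and Cxcr6 at 145 CPM (15 UMIs) in the control and 28.3 CPM (5 UMIs) in the knockout. Higher levels than in NK cells are thus not particular to T cells with NK receptor UMIs for these genes. Of 12 measured innate-like T cell genes 5 were higher and 1 lower, and of 5 measured ILC1 markers, a list of genes of NK-related resident lymphocytes, all 5 were higher, among them Cxcr6, Il7r and Rora, a nuclear receptor. The ILC1 list shares those 3 genes with the innate-like list and Tnfsf10 with the cytotoxic list, so its count is not separate evidence. Ltb, a lymphotoxin chain, was at 762 and 903 CPM against 129 and 189 CPM.

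Genes that respond to interferon also stood high. Of 11 measured 4 were higher and 0 lower: Ly6a (Sca-1), Slfn1, Bst2 and Ifi27l2a. Ly6a was at 103 and 213 CPM against 0.777 and 1.72 CPM in NK cells, with UMIs in 11 of 44 and 44 of 114 cells. Ifi27l2a was at 193 and 426 CPM against 8.72 and 11.1 CPM, in 19 and 58 cells. Isg15, the ubiquitin-like interferon product, had log2 ratios of 1.53 and 0.59 and was not counted as higher. The remaining genes among the 12 with the largest ratios were Tcrg-C2, which is tied to the split, Klk8, a kallikrein protease, Dtx1, a Notch-pathway ubiquitin ligase, and Bcl2a1b, a survival gene whose reads may be shared with its near-copies. Klk8 was at 118 and 146 CPM against 5.88 and 7.22 CPM, and Dtx1 at 109 and 124 CPM against 11.4 and 9.17 CPM.

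**Figure D3:**
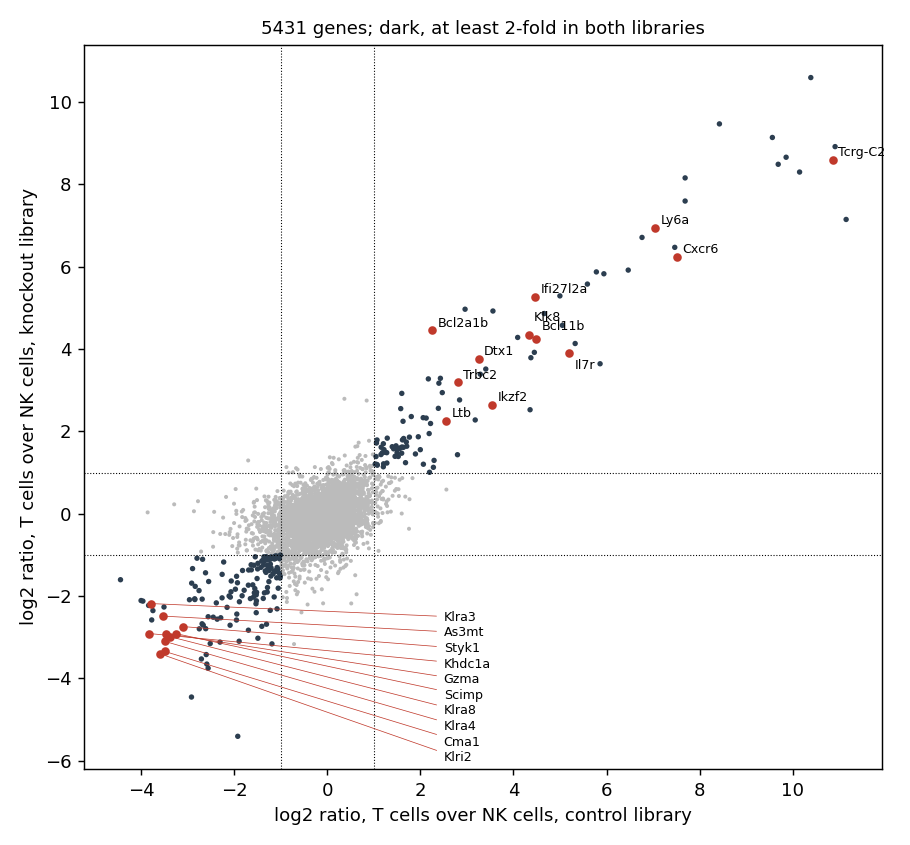
Log2 ratio of T cells over NK cells in the control library (x) and the knockout library (y) for 5431 genes, with dark points at least 2-fold apart in both libraries and in the same direction, red points named by rule and dotted lines at 2-fold. Cxcr6, Ly6a and Il7r lie far to the upper right and the Klra genes and Gzma to the lower left.

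NK cell genes were lower, but to very different degrees. Of 9 measured Ly49 family genes 6 were lower and 1, Klra6, higher, with a median log2 ratio of -2.40. Klra4, an activating Ly49 receptor, was at 112 and 121 CPM in the T cells against 1252 and 1040 CPM in NK cells, and only 7 of 44 and 10 of 114 T cells held any UMI of it. In the control 32 of its 37 UMIs lay in 2 cells, and in the knockout 71 of 76 lay in the 11 cells with both Trac and Trdc. Klra8 (Ly49H) was at 99.7 and 85.8 CPM against 1037 and 682 CPM. Without the cells holding both, the log2 ratio averaged over libraries went from -3.30 to -5.13 for Klra4 and from -3.18 to -4.20 for Klra8. Without the 5% of cells with most UMIs the same averages were -5.13 and -5.58. The Klra genes are close copies, so reads may be divided between them. Of 7 measured genes of NK signalling through ITAM adaptors 5 were lower and 0 higher. Tyrobp (DAP12) was at 553 and 548 CPM against 3025 and 3136 CPM, and Fcer1g at 695 and 591 CPM against 2088 and 2412 CPM. Hcst (DAP10), the adaptor of NKG2D, was at 783 and 1192 CPM against 738 and 864 CPM and was not lower.

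Cytotoxic genes showed the same spread, with 7 of 16 lower and 1, Tnfsf10 (TRAIL), higher. Gzma, a granzyme, was at 722 and 1275 CPM against 7935 and 9606 CPM, and 23 of 44 and 47 of 114 T cells held any UMI, against 99.4% and 98.7% of NK cells. Its UMIs ran up to 44 per control cell and 104 per knockout cell, with medians of 1 and 0. Its average log2 ratio was -3.19 over all T cells, -3.65 without the cells holding both Trac and Trdc and -4.76 without the 5% of cells with most UMIs. Prf1, perforin, was at 103 and 121 CPM against 606 and 686 CPM. Nkg7, a granule protein, was at 1176 and 1265 CPM against 2865 and 3224 CPM. Ccl5, a chemokine of cytotoxic lymphocytes, remained at 61.3% and 36.5% of the NK level, Il2rb, the interleukin 2 and 15 receptor chain, at 76.5% and 83.4%, and Xcl1 at 119% and 139%. Of 11 NK transcription factors 5 were lower and 0 higher. Eomes, a factor of NK maturation, was at 90.7 and 54.1 CPM against 349 and 293 CPM, and Zeb2 at 99.7 and 50.9 CPM against 344 and 185 CPM. Id2 was at 1046 and 1936 CPM against 1209 and 1576 CPM. Further counts concern integrins, of which 3 of 9 were lower, the NKG2, CD94 and NKR-P1 group, of which 5 of 7 were lower, and heat shock genes, of which 0 of 11 differed.

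The other genes with the lowest ratios were Klri2, a lectin-like receptor, Cma1, a chymase, Khdc1a, Scimp, a transmembrane adaptor, As3mt, an arsenic methyltransferase, Klra3 and Styk1, a receptor-type pseudokinase. Klri2 was at 36.3 and 38.2 CPM against 436 and 405 CPM in NK cells. Without the cells holding both Trac and Trdc the average log2 ratio went from -3.50 to -4.28 for Klri2 and from -3.42 to -5.01 for Cma1. Khdc1a had 0 UMIs in control T cells, which gives a level at least 14.2-fold lower at the limit of 3 counts, and 12.7 CPM against 95.7 CPM in the knockout.

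The 3 NK receptor genes of the rule were unequal in the T cells. Klrb1c was seen in 39 of 44 control and 107 of 114 knockout cells, Klrk1 in 34 and 58, and Ncr1, the gene whose promoter drives Cre, in 19 and 30. All 3 were seen in 14 and 21 cells, and Klrb1c alone in 6 and 48. At 2000 UMIs per cell Ncr1 was left in 31.8% and 13.4% of T cells, against 77.3% and 76.8% of NK cells. Since Ncr1 is among the genes that chose both kinds of cell, these shares are a description alone.

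Summed over cells, NK genes stood higher in Trdc cells than in Trac cells for 25 of 30 genes in the control and 26 of 30 in the knockout, but a few cells carried much of this. The median over the 30 NK genes was 48.4% of the NK level in control Trdc cells and 25.5% in Trac cells, and 36.0% and 14.4% in the knockout. Eomes stood at 66.8% in control and 35.7% in knockout Trdc cells, and at 9.9% and 5.3% in Trac cells. In the control 16 of the 17 Eomes UMIs of Trdc cells lay in 4 cells. Without the 4 cells with most Eomes UMIs in each class, control Trdc cells were at 7.63% and Trac cells at 4.49%. The knockout values were 11.6% and 1.96%. Tyrobp stood at 38.5% and 18.9% against 10.96% and 10.2%. Of its UMIs 78 of 85 lay in 4 of the 10 control Trdc cells and 56 of 68 in 4 of the 24 knockout ones, where the median cell held 0. Without the 4 cells with most Tyrobp UMIs in each class, Tyrobp was at 7.34% in Trdc and 5.83% in Trac cells of the control, and at 4.84% and 5.45% in the knockout. Leaving out 4 cells takes a larger part of the 10 and 24 Trdc cells than of the 31 and 69 Trac cells. The classes were thus not trimmed alike, and these Eomes and Tyrobp values do not rank them. For Gzma 4 knockout Trdc cells held 233 of 238 UMIs. Without cells above the 95th percentile of NK cell UMIs, the Trdc cells were higher for 24 of 30 genes in the control and 19 of 30 in the knockout, with medians of 42.4% against 21.5% and 29.4% against 10.55%. These alternatives were chosen after seeing the data. In the knockout Klrk1 and Tbx21 did not follow, at 30.9% and 42.9% in Trdc cells against 36.2% and 87.5% in Trac cells. Cd7, a surface protein of T and NK cells, was above the NK level in Trdc cells at 162% and 230%, and below it in Trac cells at 76.9% and 60.5%. Cxcr6 went the other way, at 68.6 and 235 CPM in Trdc cells and 215 and 478 CPM in Trac cells. The control values rest on 10 Trdc cells, and all of them share 1 library. Among these 10, 1 cell held 2 UMIs of Cd3e, 1 of Trdc and 0 of Cd3d, Cd3g and the gamma constant genes. It also held 27 NK receptor UMIs, 25 of Tyrobp, 14 of the 15 Klra4 UMIs of the class and 42 of its 79 Gzma UMIs. With 13100 UMIs it is left out where cells above the 95th percentile are. Whether it is a T cell was not tested.

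**Figure D4:**
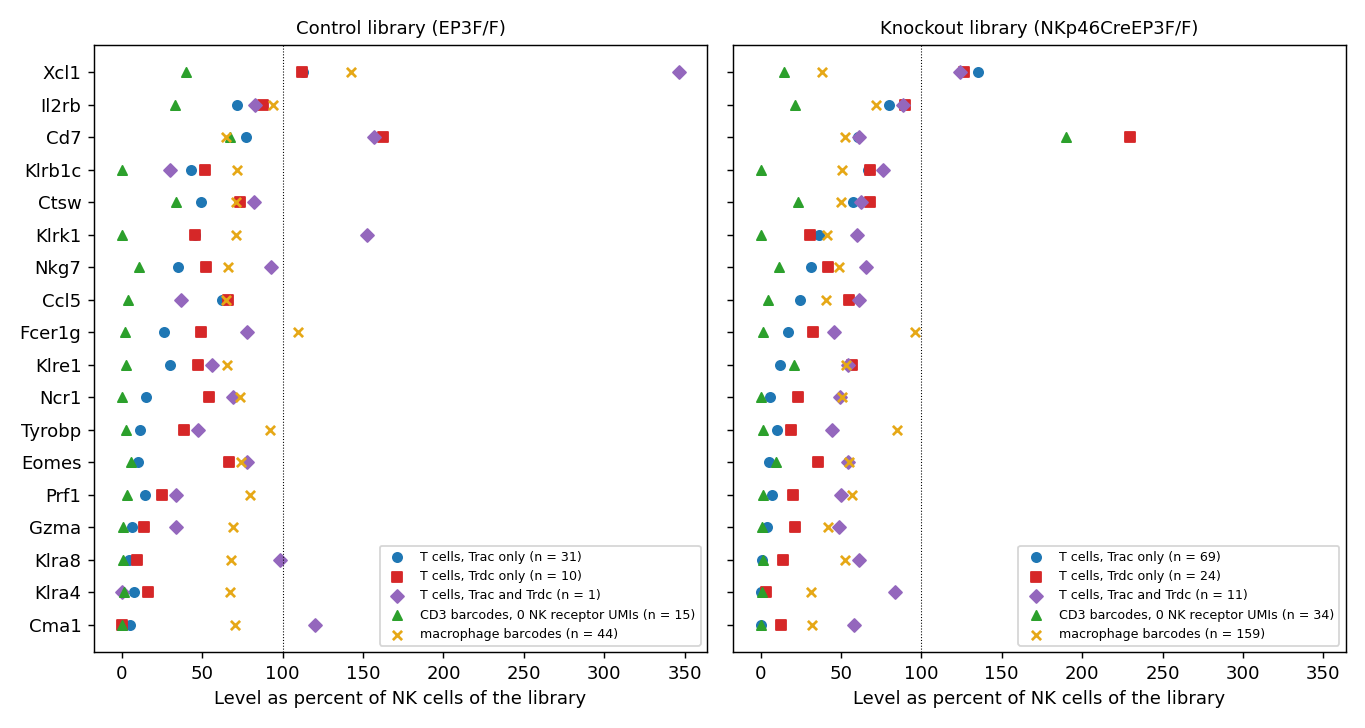
Level of 18 NK-associated genes as a percentage of the level in NK cells of the same library (x, linear) in T cells with Trac only, Trdc only or both, in CD3 barcodes with 0 NK receptor UMIs and in macrophage barcodes. Ncr1, Klrb1c and Klrk1 are among the 18 and also chose the cells. Trdc cells (red squares) lie mostly to the right of Trac cells (blue circles) and macrophage barcodes lie in a narrow band for most genes, while the control cell with both is a single cell.

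The split by gamma constant UMIs moved few genes. Of 2635 genes with a mean of at least 50 CPM, 9 were higher (0.342%) in cells with gamma constant UMIs in both libraries and 9 lower (0.342%). Trdc led, at 479 and 509 CPM with gamma constant UMIs against 16.3 and 46.8 CPM without, log2 ratios of 4.88 (3.27 to 7.19) and 3.44 (2.66 to 4.35). Dtx1 was at 157 and 176 CPM against 70.4 and 66.9 CPM, and Serpina3g, an inhibitor of proteases, at 185 and 167 CPM against 86.7 and 50.1 CPM. Plac8, at 116 and 87.9 CPM against 43.3 and 30.1 CPM, was the fourth with intervals above 0 in both libraries. Helz, Ckb and Ip6k1 had at least 1 interval that reached 0. On the lower side stood Cd8b1, with 0 UMIs in cells with gamma constant UMIs and 33 and 11 without, Dapl1, Cd5, a receptor of T cells, Rgs10, and 4 Klra genes, of which Klra4 had log2 ratios of -4.83 and -1.73. The Klra result rests on few cells: without the 5% of cells with most UMIs the average log2 ratios of Klra4, Klra8 and Klra9 went from -3.28, -2.38 and -1.25 to -1.31, -0.34 and -0.04, and none of these 3 was lower 2-fold in both libraries. Without cells holding both Trac and Trdc the same was true of Klra4 at -1.64, Klra8 at -1.26 and Rgs10 at -1.42. The Dapl1 UMIs of the knockout lay mostly in 1 cell, 19 of 24. Of 7 measured Ly49 genes 4 were lower, of 12 cytotoxic genes 0 were higher or lower, and of 11 innate-like genes 0. The number of higher genes depends on the cell filter: it was 20 with at least 1000 genes and at most 5% mitochondrial UMIs, 24 without the 5% of cells with most UMIs, and 16 without cells holding both Trac and Trdc.

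The genotypes were compared last, T cells of the knockout library with T cells of the control library. Ptger3, the gene of EP3, had 0 UMIs in the T cells of both libraries, which allows up to 9.07 CPM in the control and 4.77 CPM in the knockout. NK cells had 16 UMIs of it in the control library and none in the knockout library. Whether the 3' tags fall in the deleted part is not given, and the T cells give no check of the deletion. Of 2630 genes with a mean of at least 50 CPM, 63 were higher (2.4%) and 126 lower (4.79%) in knockout T cells by at least 2-fold, with a median log2 ratio of -0.02 over all of them.

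The genes with the largest ratios were divided into those that moved alike in NK cells and those that did not. Wls, the carrier needed for Wnt secretion, was at 42.3 CPM in control and 364 CPM in knockout T cells, a log2 ratio of 3.11 (2.33 to 3.999), and at 50.4 and 565 CPM in NK cells, a log2 ratio of 3.49. Its UMIs were spread over 10 control and 87 knockout cells. In T cells with no Ncr1 UMI it was at 37.97 and 346 CPM. In the 15 control CD3 barcodes with 0 NK receptor UMIs it was at 9.69 CPM, which is only 1 UMI. In the 34 knockout ones it was at 192 CPM. Macrophage barcodes held 42.9 and 378 CPM. Cirbp, an RNA-binding protein induced by cold, was at 54.4 and 302 CPM in T cells and 60.1 and 301 CPM in NK cells. Hsph1, a heat shock protein, was at 169 and 15.9 CPM in T cells and at 134 and 10.4 CPM in NK cells. Of 10 measured heat shock genes 8 were lower in knockout T cells, with a median log2 ratio of -1.36, and the median of the list in NK cells was -1.30. Apobec3, a cytidine deaminase that restricts retroviruses, was at 293 and 55.6 CPM in T cells and 305 and 85.0 CPM in NK cells. In T cells with no Ncr1 UMI, Cirbp was at 56.9 and 312 CPM, Hsph1 at 253 and 16.8 CPM and Apobec3 at 304 and 60.03 CPM. Genotype and library cannot be told apart for these genes.

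Other genes had low levels in NK cells, or a smaller or opposite ratio there. Cd6 was at 15.1 and 105 CPM, in 5 of 44 and 40 of 114 cells, and Izumo1r, a folate receptor family protein of T cells, at 27.2 and 110 CPM, in 3 and 32 cells. Bcl2a1d, a survival gene with near-copies, was at 36.3 and 129 CPM, against 4.66 and 4.11 CPM in NK cells. Podnl1 was at 27.2 and 114 CPM. Cd8b1 was lower, at 99.7 and 17.5 CPM, on UMIs in 4 cells of each library. Plek, a platelet and leukocyte signalling protein, Dnm1l, a mitochondrial fission enzyme, Acadl, an enzyme of fatty acid oxidation, Filip1l and Msl3 had log2 ratios from -2.37 to -1.98 in T cells and from -1.68 to -0.51 in NK cells. In cells thinned to 2000 UMIs the Msl3 ratio was -0.18, under 2-fold. Cxcr6 was 2.30-fold higher in knockout T cells, and its share of cells at 2000 UMIs was 25.0% in the control and 38.4% in the knockout. In NK cells Cxcr6 was at 0.909 CPM in the control and 5.05 CPM in the knockout, a larger ratio in the same direction at low levels. Il7r was at a log2 ratio of -0.18, within 2-fold.

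A single cell decided Apoe and held most of the Ccl4 UMIs. Apoe, an apolipoprotein of macrophages, had 1 UMI in control and 62 in knockout T cells, of which 60 lay in 1 cell. Its log2 ratio was 5.03. Without the top cell of each library 0 control and 2 knockout Apoe UMIs were left. The log2 ratio was then -1.57, a bound set by the limit of 3 counts that gives no direction. Ccl4, a chemokine, had 8 and 108 UMIs, of which 63 lay in 1 knockout cell, and its log2 ratio was 2.83 with that cell and 1.94 without the top cells, against -1.06 in NK cells. Macrophage markers, of which the rule fixes 3 of 10 at 0, summed to 9.07 CPM in control and 81.1 CPM in knockout T cells, with 8 and 5 genes at 0, and to 41.6 and 158 CPM in NK cells. Lyz2, a lysozyme, made up 62.0 CPM of the knockout sum, with 37 of its 39 UMIs in 1 cell. The rule also fixes at 0 the dendritic cell marker H2-Aa and the B cell marker Cd79a. Dendritic cell markers summed to 42.3 and 14.3 CPM with 6 of 9 at 0 in each library. B cell markers summed to 145 and 97.0 CPM with 6 of 8 at 0, nearly all of it Ighm, which NK cells held at 112 and 85.0 CPM. Their part in the results was not tested.

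**Figure D5:**
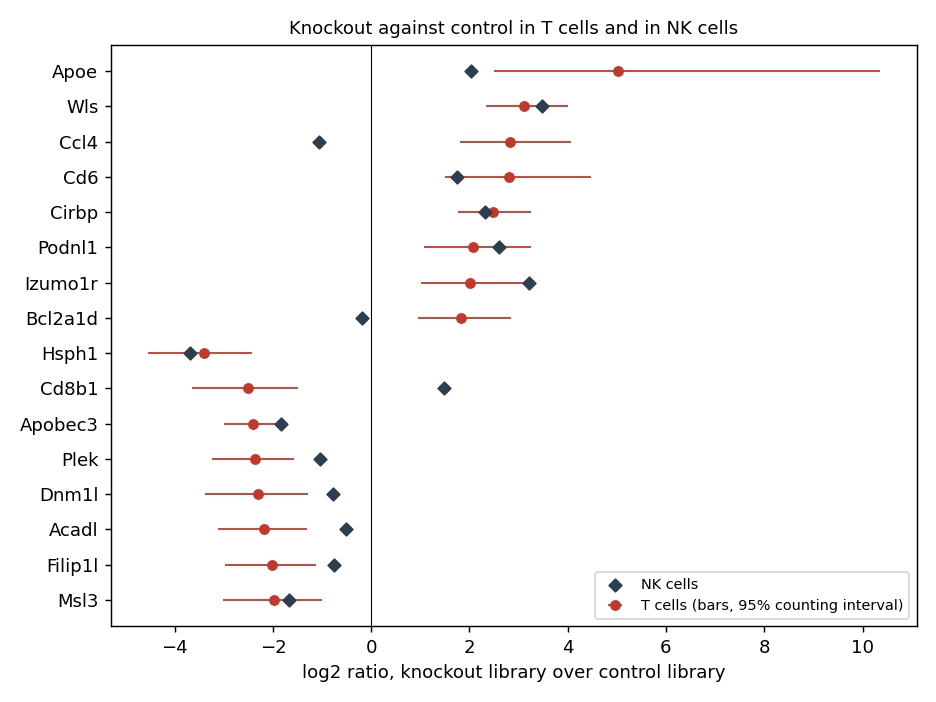
Log2 ratio of the knockout library over the control library for the 16 genes named by rule, in T cells (red circles, bars for the 95% counting interval) and in NK cells (dark diamonds). Wls, Cirbp, Hsph1 and Apobec3 lie close together in both cell types, while Ccl4 and Cd8b1 lie on opposite sides of 0.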

How the data were processed

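The deposited matrices hold raw UMI counts per gene and barcode, with no normalization by the authors. Per the submitters' processing notes they come from STAR, Cell Ranger 3.0.0 and Seurat on GRCm39, and per the labels the kit was Single Cell 3' v2. Reads were not used. The files list 31053 gene IDs.

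Groups came from the genotype labels. The cells, the gene lists and the comparisons were chosen with earlier results of these data known. UMIs were summed per library and cell group and divided by the group's total to give CPM. Log2 ratios carry exact conditional binomial intervals and shares exact Clopper-Pearson intervals, which at 95% cover counting error alone. A sum of 0 was set to 3 counts, which makes the ratio a bound. With 1 library per group and cells that are not replicates, no p-value was computed. No doublet caller was run: cells of high UMIs, or with Trac and Trdc together, were left out as alternatives.

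Named by rule, without mitochondrial, ribosomal, predicted and variable-segment genes, were the 12 highest and 10 lowest ratios against NK cells, the 8 highest and 8 lowest of the other comparisons, and up to 4 genes of each of 30 lists. Fewer than 8 higher genes were left for the split. Other names were chosen after their values were seen. Alternatives covered cell filters, CPM minimum, fold size, scaling, thinning to 2000 UMIs, and stricter or looser rules. Scripts (Python 3.11.15, numpy 2.4.6, scipy 1.17.1, pandas 2.3.3) were tested on simulated data.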

Additional observations from a re-analysis of the deposited data

Results flagged for a closer look

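Apoe was the only one of 5431 genes that was at least 2-fold lower in T cells than in NK cells in one library and at least 2-fold higher in the other. Its log2 ratio of T cells over NK cells was -1.70 in the control library and 1.29 in the knockout library. The difference between the libraries was not tested. In the knockout 60 of the 62 Apoe UMIs of T cells lay in 1 cell, and the control value rests on 1 UMI.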

How the results depend on the processing

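No paired analysis was possible because each genotype has 1 library and no replicate numbers. The share of T cells kept its order between libraries under each alternative run. With the rule applied to cells thinned to 2000 UMIs it was 0.178% in the control and 0.697% in the knockout. With at least 1000 genes and at most 5% mitochondrial UMIs the knockout share was 0.703%, the higher genes numbered 20 for the gamma constant split and 98 for knockout against control, and the Apoe log2 ratio was -0.26. In thinned cells the split gave 73 higher and 37 lower genes, and knockout against control gave 195 and 299. At a minimum of 5 CPM the counts of higher and lower genes were 250 and 298 against NK cells, 214 and 120 for the split, and 854 and 948 for knockout against control. Without the 5% of cells with most UMIs the split gave 24 and 5, knockout against control gave 102 higher genes, and Apoe was at -1.35. At a log2 ratio of at least 0.58 the counts were 203 and 391, 80 and 32, and 283 and 426. Alternatives added after seeing the data gave the following. Without cells holding both Trac and Trdc the split gave 16 higher genes. Without the top cell of each library Apoe was at -1.57, a bound that rests on 0 control and 2 knockout UMIs. The causes were not tested, except that lower minimums and thinner cells leave fewer UMIs per gene and the smaller fold admits more genes. For named genes 457 of 484 values under alternatives moved by less than their counting interval, 24 moved by more and 3, all of Apoe, changed sign. The sign change without the top cells is set by the limit of 3 counts and is no measured reversal. Of the 484 values, 33 fell short of 2-fold in the reported direction, 29 of them of the split and 4 of knockout against control. The groups of the split hold 21 to 63 cells.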
